A study of Mus musculus with 112 samples.

Results

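The cytoplasm of mouse 46C embryonic stem cells (ESCs, strain 129/Ola) was compared between 3 libraries made 2 h after nucleofection of 75 µM U1 antisense morpholino oligonucleotide (U1 AMO) and 3 libraries made 2 h after nucleofection of 75 µM control AMO. These 6 samples, of 112 in the series, were chosen by their fraction and treatment labels. A morpholino is a synthetic oligonucleotide that binds its RNA by base pairing, here the U1 small nuclear RNA, and blocks it without cutting it. The protocol text of the AMO samples also ends in a line naming 4 h of IAA, a treatment of another line in the series; their treatment label names the AMO alone, and the AMO label was followed. Cytoplasmic libraries after 75 µM U2 AMO (3 libraries) and 50 µM U1+U2 AMO (3 libraries), also at 2 h, and the chromatin, nucleoplasm and whole cells of the same treatments served for comparison. Total RNA in the cytoplasm of a line carrying SNRNP70, a protein of the U1 particle, fused to an auxin-inducible degron (AID) was taken after 4 h of 500 µM indole-3-acetic acid (IAA, 3 libraries) and at 0 h without treatment (3 libraries). The study asked how the location of long noncoding RNAs (lncRNAs) changes when U1 is inhibited or lost.

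U1 snRNP is the particle that recognises the 5′ end of introns through base pairing of its RNA, and it also keeps transcripts from being cut and polyadenylated too early. Many lncRNAs stay in the nucleus, bound to chromatin, while mature, spliced transcripts reach the cytoplasm, where those with early stop codons are degraded by nonsense-mediated decay. Host genes of small nucleolar RNAs (snoRNAs) are a class of such transcripts: the snoRNAs are cut out of the introns, and the spliced remainder is exported and, for several hosts, decayed in the cytoplasm.

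Values were FPKM (fragments normalised to transcript length and to the number mapped) that the authors scaled to spike-in RNA, for 1279 lncRNAs. The 6 cytoplasmic libraries summed to 32455 to 41212 FPKM after U1 AMO and to 32434 to 37688 FPKM after control AMO, with medians of 1.39 to 1.45 and 1.39 to 1.6 FPKM. Control AMO library 2 listed 11 lncRNAs at 0, against 44 to 59 in the U1 AMO libraries and 56 and 66 in the other control AMO libraries. Within a treatment, log2 levels of any pair of libraries correlated across lncRNAs at 0.914 to 0.933. Hist2h2bb, a histone transcript in the list, averaged 8525 ± 1030 FPKM in the cytoplasm and 113 ± 8.21 FPKM on chromatin after U1 AMO, and 8044 ± 740 and 105 ± 32.2 FPKM after control AMO (SD, n = 3 each). RNAs known from the nucleus were also read in this fraction. Malat1, the RNA of nuclear speckles, averaged 1122 ± 122 FPKM in the cytoplasm and 507 ± 36.9 FPKM on chromatin after U1 AMO, and 1348 ± 137 and 831 ± 140 FPKM after control AMO. Kcnq1ot1, an imprinted RNA that stays at its own locus, was at 0.527 ± 0.121 FPKM in the cytoplasm and 3.03 ± 0.517 FPKM on chromatin after U1 AMO, and at 0.70 ± 0.104 and 6.55 ± 0.69 FPKM after control AMO. How the spike-in scaling sets the fractions against each other is not given in the sources used here. Summed over 6 RNAs of the nucleus (Malat1, Neat1, Kcnq1ot1, Tsix, Meg3 and Firre), the cytoplasm held 1081 to 1322 FPKM after U1 AMO and 1301 to 1573 FPKM after control AMO. Malat1 made up most of each sum, with 1029 to 1260 FPKM after U1 AMO and 1231 to 1499 FPKM after control AMO. All 6 RNAs were measured, 0 were called and none was at 0 in every library. The part of nuclear RNA in the results was not tested. The table lists lncRNAs, and U1 RNA and Snrnp70 are not analysed here, so the block itself has no check in these values. The labels do not say that replicates were separate cultures, so the p-values speak only of how far these libraries differ, a spread that may be technical.

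After 2 h of U1 AMO, 49 of 1242 lncRNAs tested rose in the cytoplasm (3.95%) and 42 fell (3.38%), 7.33% in all (limma on log2 of FPKM plus 0.2, Benjamini-Hochberg adjusted p below 0.05). The largest rise among lncRNAs of at least median level was that of Gm42929, 9.48-fold, and the rise of highest level was that of Snhg12, 3.61-fold. The largest fall among them was that of Sox2ot, 4.96-fold, and the fall of highest level that of AI506816, 1.92-fold. Over all lncRNAs tested, the median log2 change was -0.20. The rises had a median log2 change of 1.58 (0.81 to 3.24) and a median level of 3.77 FPKM after U1 AMO and 1.18 FPKM after control AMO. Among the falls the median log2 change was -1.42 (-2.31 to -0.70), with median levels of 3.28 FPKM after U1 AMO and 9.39 FPKM after control AMO. The calls rest on these same levels, so the distance between the medians after control AMO follows from the selection. Of the 49 rises, 20 were below 1 FPKM after control AMO, as were 3 of the 42 falls and 455 of the 1242 lncRNAs tested. One rise, Gm43119, was listed at 0 in all 3 control AMO libraries and one fall, Gm12737, in all 3 U1 AMO libraries (both chosen after their values were seen). All 91 called lncRNAs had groups that did not overlap, which held for 28.3% of the lncRNAs tested. A fit of only these 6 libraries called 50 in place of 91, a fit with the replicate number as a block 117 (61 higher and 56 lower), and a fit without U1 AMO library 3, control AMO library 1 or control AMO library 3 called 44, 48 or 47.

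**Figure D1:**
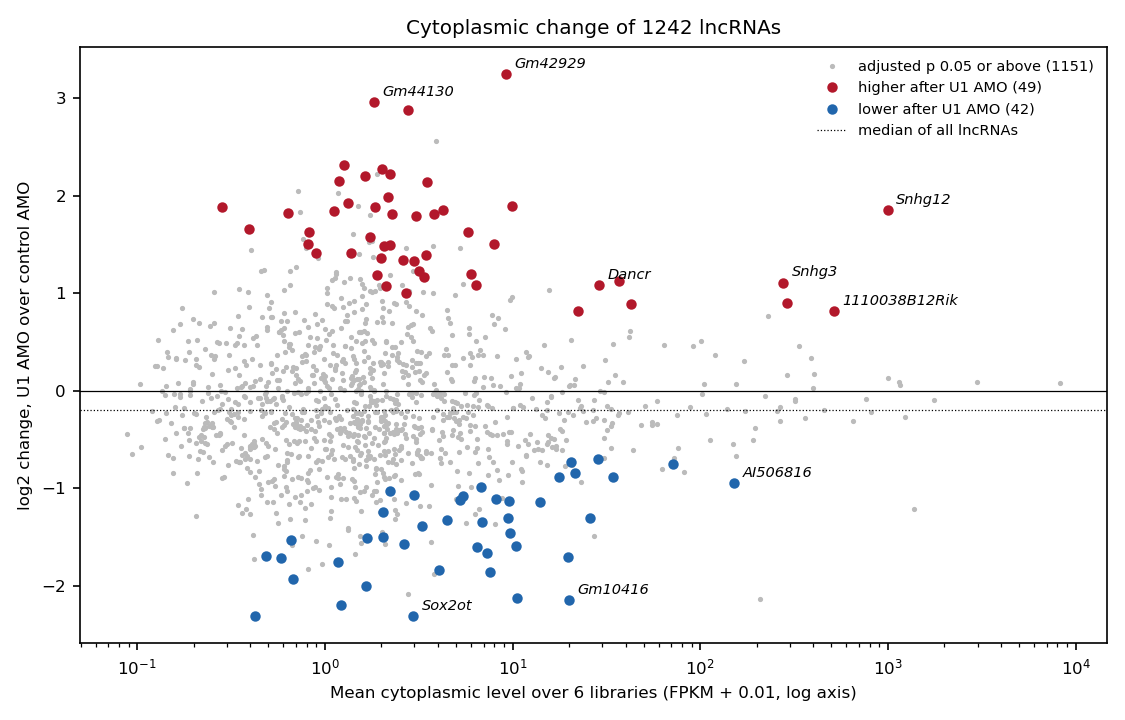
Log2 change of each of the 1242 lncRNAs tested, U1 AMO over control AMO in cytoplasm (y axis), against its mean level over the 6 libraries in FPKM (x axis, log scale). Red points are the 49 rises, blue points the 42 falls, grey points the rest; the dotted line is the median of all, -0.20. Snhg12, Snhg3 and 1110038B12Rik lie at the highest levels among the labelled rises.

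The snoRNA host genes held the most abundant rises. Of 12 listed hosts, all tested, 4 rose, 0 fell and 8 did not pass the test, where 3.95% of all lncRNAs tested rose. The list does not hold Dancr, which also carries snoRNAs and is given below. The median log2 change over the 12 was 0.46, against -0.20 for all lncRNAs tested. Snhg12, host of several snoRNAs on chromosome 4, was read at 1884, 1372 and 1428 FPKM in the U1 AMO libraries, against 456, 373 and 460 FPKM in the control AMO libraries. Every U1 AMO library was thus above every control AMO library (log2 change 1.85 ± 0.24 SE, adjusted p = 0.00151 by limma). Snhg3 was at 450, 339 and 349 FPKM after U1 AMO, against 162, 169 and 194 FPKM after control AMO. The groups did not overlap, and the log2 change was 1.11 ± 0.20 (SE, limma adjusted p = 0.00524). Snhg12 and Snhg3 lie close together, with starts 45.0 kb apart on opposite strands of chromosome 4 (RefSeq, GRCm38.p6, the assembly of the submitters' build mm10).

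Snhg1, known as a host of box C/D snoRNAs, was at 411, 334 and 378 FPKM after U1 AMO and at 241, 161 and 204 FPKM after control AMO (log2 change 0.90 ± 0.22 SE, limma adjusted p = 0.0243). For 1110038B12Rik, whose symbol now stands as a snoRNA host, the values were 678, 565 and 744 FPKM after U1 AMO and 362, 377 and 385 FPKM after control AMO (0.81 ± 0.20, limma adjusted p = 0.0259). In both genes the lowest U1 AMO library lay above the highest control AMO library. The calls of Snhg1 and 1110038B12Rik ended in a fit of only the 6 libraries (limma adjusted p = 0.0615 and 0.0618), without trended variance, and without 4 and 5 of the 6 libraries left out in turn (adjusted p up to 0.0861 and 0.117), with log2 changes of 0.75 to 1.04 and 0.72 to 0.92. Those of Snhg12 and Snhg3 held in all of these fits.

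The other 8 hosts had log2 changes between -0.51 (Snhg20) and 0.77 (Snhg15, limma adjusted p = 0.0671). Gas5, a host whose spliced RNA is a known target of nonsense-mediated decay, was at 425, 350 and 383 FPKM after U1 AMO, against 312, 242 and 294 FPKM after control AMO. Its libraries did not overlap, yet the log2 change of 0.45 ± 0.19 did not pass the test (limma adjusted p = 0.177). With the replicate number as a block it did (adjusted p = 0.0423). Snhg5 was at 346, 289 and 287 FPKM after U1 AMO and at 356, 288 and 347 FPKM after control AMO (log2 change -0.10, limma adjusted p = 0.816), and Snhg6 at 63.9, 39.1 and 53.3 FPKM after U1 AMO and 67.7, 55.5 and 72.4 FPKM after control AMO (-0.34, adjusted p = 0.497). The groups overlapped in both.

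**Figure D2:**
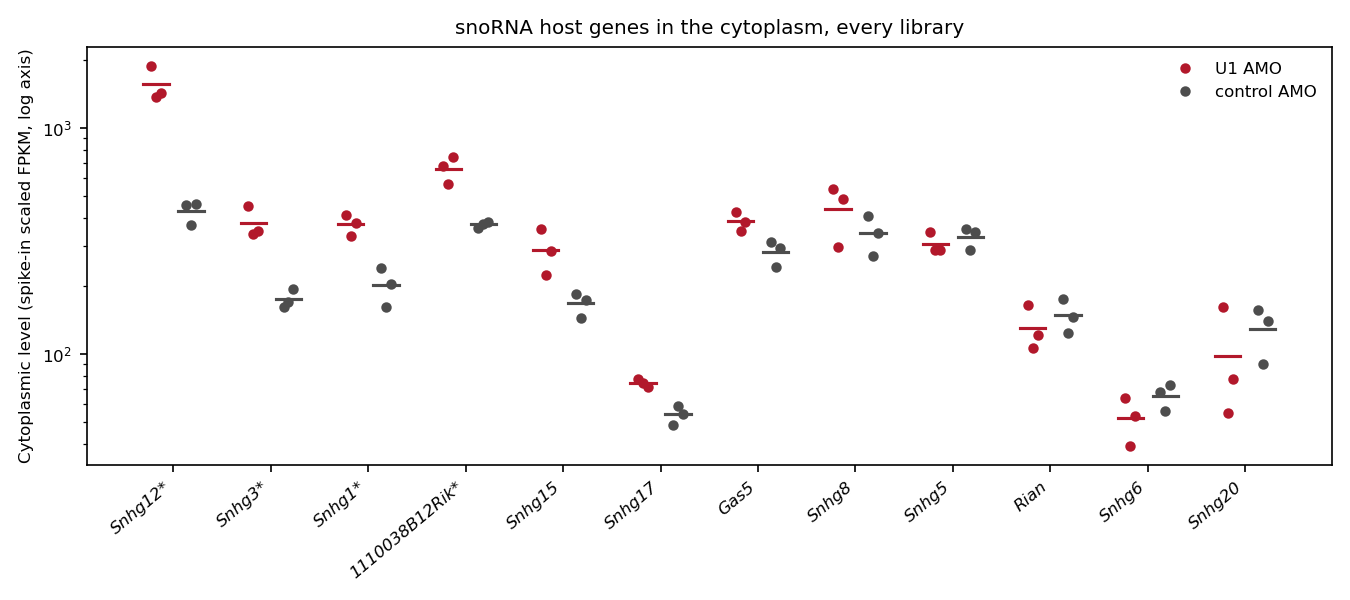
Cytoplasmic level (spike-in scaled FPKM, log axis) of the 12 snoRNA host genes tested, 1 point per library and a bar at the mean of 3, U1 AMO in red on the left and control AMO in grey on the right of each pair. Asterisks mark the 4 hosts past adjusted p 0.05; Snhg12 reached 1372 to 1884 FPKM after U1 AMO, against 373 to 460 FPKM after control AMO.

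The beginnings of these transcripts are shown because U1 acts by pairing with the start of an intron, and a first intron can begin near the start of the transcript. Printed are the first 50 transcribed bases from RefSeq (GRCm38.p6), with GTAAGT, a form of the intron start that pairs with U1 RNA, in capitals; AI506816 is the fall of highest level.
Snhg1, chr19:8723487-8723536, + strand: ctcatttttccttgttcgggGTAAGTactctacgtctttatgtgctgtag
Snhg12, chr4:132308678-132308727, + strand: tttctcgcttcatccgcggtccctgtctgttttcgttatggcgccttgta
Snhg3, chr4:132353637-132353686, - strand: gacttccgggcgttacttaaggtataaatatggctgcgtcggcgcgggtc
1110038B12Rik, chr17:34952422-34952471, - strand: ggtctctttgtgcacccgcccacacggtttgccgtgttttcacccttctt
Dancr, chr5:74093060-74093109, + strand: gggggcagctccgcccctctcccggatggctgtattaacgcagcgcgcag
AI506816, chr5:23712618-23712667, - strand: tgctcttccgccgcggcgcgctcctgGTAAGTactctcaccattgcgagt
GTAAGT on the transcribed strand was found in 1 of 9 such starts of rises (Snhg1), 1 of 17 starts of falls (AI506816) and 3 of 371 starts of tested lncRNAs that were not called (0.809%). Over all 32851 RefSeq starts, 0.904% held it on the transcribed strand and 0.487% on the other strand. Only 351 of the 1242 lncRNAs tested had a start in this table. A match of letters is a description, not a site.

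Dancr, a spliced lncRNA that also carries snoRNAs, rose as well. It was at 52.3, 31.1 and 35.5 FPKM after U1 AMO, against 19.2, 19.7 and 15.9 FPKM after control AMO, with no overlap (log2 change 1.08 ± 0.28 SE, limma adjusted p = 0.0344). The call ended without any 1 of 5 libraries, all but U1 AMO library 2 (adjusted p up to 0.136, log2 change 0.86 to 1.24), in a fit of only the 6 libraries (0.0504) and without trended variance (0.0622). It was the 1 of 4 lncRNAs listed as spliced to pass, and the median log2 change of the 4 was 0.22. Tug1, a spliced lncRNA found in nucleus and cytoplasm, was at 55.7, 58.7 and 54.9 FPKM after U1 AMO and 59.6, 58.6 and 63.7 FPKM after control AMO (log2 change -0.10, limma adjusted p = 0.766). Tug1 therefore had nearly the same level in all 6 libraries.

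The largest rises at or above the median level were lncRNAs with numbered names and no described function. Gm42929 was at 12.0, 17.6 and 20.4 FPKM after U1 AMO, against 1.20, 2.73 and 1.08 FPKM after control AMO (log2 change 3.24 ± 0.36 SE, limma adjusted p = 0.0013). Every U1 AMO library exceeded the highest control AMO library several times over. Gm44130 was at 3.15, 2.71 and 4.25 FPKM after U1 AMO and 0.21, 0.35 and 0.21 FPKM after control AMO (2.96 ± 0.39, adjusted p = 0.00151), and Gm37262 at 2.99, 5.03 and 6.97 FPKM after U1 AMO and 0.88, 0.23 and 0.45 FPKM after control AMO (2.88 ± 0.39, adjusted p = 0.00151). These were near the lower end of measured levels after control AMO and clearly measured after U1 AMO. Gm37238 was at 16.1, 14.7 and 15.9 FPKM after U1 AMO, against 2.87, 3.86 and 5.90 FPKM after control AMO (1.89 ± 0.26, adjusted p = 0.00151). The other largest rises at that level, D530018E20Rik, Gm45222, Gm43312, Gm28373, Gm45223 and Gm16283, had log2 changes of 2.27, 2.22, 2.20, 2.14, 1.98 and 1.88. Of these 10 largest rises 9 held their call in each alternative run; Gm16283 lost it without any 1 library (limma adjusted p up to 0.0971). Gm12940 was at 49.6, 63.6 and 52.7 FPKM after U1 AMO and 26.1, 29.8 and 33.1 FPKM after control AMO (0.89 ± 0.22, adjusted p = 0.0308). RefSeq lists that symbol as a synonym of Sfpq, which encodes a splicing and paraspeckle protein, so its values may hold Sfpq transcripts. Its call ended in a fit of only the 6 libraries (adjusted p = 0.0502), without trended variance (0.0657) and without any 1 library but U1 AMO library 1 (up to 0.112).

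By the form of the symbol, a grouping made after the values were seen, Gm genes numbered 37000 and above had 30 rises and 13 falls among 494 tested (6.07% and 2.63%). Gm genes of lower number had 9 rises and 10 falls among 304, Rik genes 6 and 11 among 279, and all other lncRNAs 4 and 8 among 165 (2.42% and 4.85%). The median log2 changes were -0.22, -0.16, -0.14 and -0.22. No gene named as opposite-strand to a coding gene was called among 38 tested, with 19 above 0. Of all lncRNAs tested 7.33% were called, so a count of 0 in 38 is near the general share.

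Falls included several lncRNAs with described roles. Sox2ot, which overlaps the pluripotency gene Sox2 on the same strand, was at 1.52, 1.17 and 0.25 FPKM after U1 AMO, against 5.94, 4.05 and 4.76 FPKM after control AMO (log2 change -2.31 ± 0.47 SE, limma adjusted p = 0.0128). The groups did not overlap; without control AMO library 1 the adjusted p was 0.0533. Reads of Sox2 and Sox2ot cannot be told apart in these values. Dleu2, the host of miR-15a and miR-16-1, was at 7.82, 9.02 and 9.17 FPKM after U1 AMO, against 17.1, 18.5 and 22.6 FPKM after control AMO (-1.14 ± 0.21, adjusted p = 0.00712). Nespas, an imprinted antisense RNA of the Gnas locus, was at 6.75, 5.77 and 5.32 FPKM after U1 AMO and at 13.2, 11.9 and 14.6 FPKM after control AMO (-1.13 ± 0.23, adjusted p = 0.0119; 0.0585 as the highest with 1 library left out, U1 AMO library 3 or control AMO library 3). Both were lower by about the same factor, 2.20-fold and 2.18-fold.

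AI506816, of no described function, was at 97.8, 112 and 100 FPKM after U1 AMO, against 201, 176 and 222 FPKM after control AMO (-0.94 ± 0.20 SE, limma adjusted p = 0.0153; up to 0.063 without U1 AMO library 3, control AMO library 1 or control AMO library 3). Gm10416, which RefSeq gives as a transcribed pseudogene on chromosome 5, was at 5.83, 7.72 and 8.0 FPKM after U1 AMO, against 29.4, 27.8 and 41.0 FPKM after control AMO (-2.15 ± 0.29, adjusted p = 0.00151). As a pseudogene it may share reads with its parent gene. Gm37795 was at 3.33, 3.65 and 4.32 FPKM after U1 AMO and 21.8, 13.8 and 16.2 FPKM after control AMO (-2.12 ± 0.29, adjusted p = 0.00151). For these genes, too, no U1 AMO library reached the lowest control AMO library. The other large falls at or above the median level were Gm43029, A930015D03Rik, Gm43860, BC002059, ENSMUSG00000106997.1, Gm20548 and Gm6712. Their log2 changes were -2.0, -1.86, -1.83, -1.70, -1.66, -1.60 and -1.59. RefSeq gives Gm6712 as protein-coding. A930015D03Rik, Gm43860, BC002059 and ENSMUSG00000106997.1, like Gm10416, Gm37795 and Dleu2, held their call in each alternative run, while Gm43029, Gm20548 and Gm6712 lost it without any 1 of 5, 4 and 5 libraries. The highly expressed falls Gm29084, ENSMUSG00000089788.1, Gm42860 and 2410006H16Rik had log2 changes of -0.75, -0.88, -0.70 and -1.30. They lost their call without any 1 of 5, 4, 5 and 4 libraries, and in 2, 1, 2 and 1 of the other alternatives.

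Among well-known lncRNAs of the nucleus and of stem cells, as among all tested, most did not pass the test. Of 13 nuclear-retained lncRNAs tested 2 fell, Dleu2 and Nespas, 0 rose and 11 were not called, where 3.38% of all lncRNAs tested fell, and their median log2 change was -0.32, against -0.20 for all lncRNAs tested. Malat1 was at 1029, 1077 and 1260 FPKM after U1 AMO and 1313, 1231 and 1499 FPKM after control AMO (log2 change -0.27, limma adjusted p = 0.53), and Neat1, the scaffold of paraspeckles, at 13.5, 15.0 and 24.8 FPKM after U1 AMO and 16.9, 15.2 and 14.8 FPKM after control AMO (0.13, adjusted p = 0.814; -0.13 without U1 AMO library 3). The groups overlapped for both. Meg3, Kcnq1ot1, Tsix and Firre had log2 changes of -0.32, -0.32, -0.37 and -0.57. Xist was at 0.96, 0.04 and 0 FPKM after U1 AMO and 0.19, 0.01 and 0.02 FPKM after control AMO, too low to be tested.

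Of 23 lncRNAs of ESCs (Lncenc1, Panct2 and the Platr genes, named for their expression in pluripotent cells), 0 were called, where 7.33% of all lncRNAs tested were called. Their log2 changes lay between -0.70 and 0.57 with a median of -0.21. Summed, they gave 556 to 793 FPKM after U1 AMO and 632 to 900 FPKM after control AMO, and none was at 0 in all 6 libraries. Lncenc1, an ESC lncRNA, was at 163, 153 and 167 FPKM after U1 AMO and 192, 161 and 205 FPKM after control AMO (log2 change -0.20, limma adjusted p = 0.591). Of the 8 lncRNAs chosen as markers of differentiated cells 5 were measured, and they summed to 26.0 to 44.1 FPKM after U1 AMO and 31.6 to 46.0 FPKM after control AMO; Sox2ot was the 1 that was called. None of these 5 was at 0 in all 6 libraries. Of 5 imprinted lncRNAs Nespas fell and 0 rose (median log2 change -0.32), of 3 lncRNAs of X inactivation 0 were called (-0.37), and of 4 abundant and histone transcripts 0 were called (0.08). Of 6 microRNA hosts tested Dleu2 alone passed, and their median was -0.58. Over all lncRNAs tested 3.95% rose and 3.38% fell, and counts from lists this short cannot be told from these shares. Mir22hg, host of miR-22, was at 12.2, 10.7 and 8.59 FPKM after U1 AMO and 20.2, 15.8 and 16.5 FPKM after control AMO (-0.73, adjusted p = 0.0783), and Mir17hg, host of the miR-17-92 cluster, at 19, 16.8 and 19 FPKM after U1 AMO and 17.7, 16.7 and 21.3 FPKM after control AMO (-0.02, adjusted p = 0.971).

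In the other fractions of the same treatments the cytoplasmic rises and falls were read again in separate libraries. These libraries carry the same replicate numbers as the cytoplasmic ones, and whether same-numbered fractions came from the same cells is not given. A change seen in several fractions is therefore not an independent repeat. In bulk fractions fewer molecules per cell and a move between fractions cannot be told apart from one fraction alone. On chromatin, 64 of 1256 lncRNAs rose (5.1%) and 651 fell (51.8%), 56.9% in all. With each library centred on its median 226 rose and 145 fell, and the median log2 change was 0.04 in place of -0.80. Of the 49 cytoplasmic rises 24 rose on chromatin and 2 fell there, Gm28373 and Dancr, and the 49 had a median log2 change of 0.53, against -0.80 for all. Of the 42 cytoplasmic falls 40 fell on chromatin and 0 rose, with a median of -1.40. The 24 were 49.0% of the cytoplasmic rises and 37.5% of the chromatin rises, and the 40 were 95.2% of the cytoplasmic falls and 6.14% of the chromatin falls.

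In the nucleoplasm 120 of 1142 lncRNAs rose (10.5%) and 42 fell (3.68%), 14.2% in all, or 131 and 116 with centred libraries. Of the 48 cytoplasmic rises tested there 39 rose and 0 fell, with a median log2 change of 1.70 against 0.00 for all. Of the 42 falls 16 fell and 0 rose, with a median of -0.81. For whole cells the table names no spike-in scaling. Control AMO had 2 libraries there, because a column of control AMO replicate 3 that names no fraction was not used. In whole cells 78 of 1251 lncRNAs rose (6.24%) and 90 fell (7.19%), 13.4% in all. With centred libraries 102 rose and 58 fell, and without control AMO library 1 the counts were 51 and 19. There 35 of 48 cytoplasmic rises tested rose and 24 of 42 falls fell, and 0 went the other way. Gm44045, of no described function, rose in each fraction. It was at 5.58, 7.33 and 7.54 FPKM after U1 AMO and 1.68, 1.73 and 1.77 FPKM after control AMO in cytoplasm, with log2 changes of 1.85 in cytoplasm, 1.65 on chromatin, 3.09 in nucleoplasm and 2.31 in whole cells (limma adjusted p of 0.00396, 5.31e-05, 9.37e-06 and 3.06e-05). Gm37795 fell in each fraction, with -2.12, -2.27, -1.91 and -2.15 in the same order.

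Among the snoRNA hosts the fractions differed from gene to gene. Snhg12 rose in each, with mean levels of 382 ± 26.7 FPKM after U1 AMO and 175 ± 10.2 FPKM after control AMO on chromatin (log2 change 1.12, limma adjusted p = 0.000542) and log2 changes of 2.24 in nucleoplasm and 1.5 in whole cells. Snhg3 averaged 71.0 ± 14.6 FPKM after U1 AMO and 68.4 ± 11.2 FPKM after control AMO on chromatin (0.05, adjusted p = 0.858), and Snhg1 145 ± 13.2 and 149 ± 10.5 FPKM (-0.03, adjusted p = 0.873; SD, n = 3 each). For Snhg3 and Snhg1 the chromatin means thus differed by less than the spread of the libraries. Gas5 and Snhg6 fell on chromatin (log2 change -0.69 and -0.97). Dancr rose in cytoplasm and fell on chromatin, where it averaged 14.7 ± 2.81 FPKM after U1 AMO and 23.7 ± 5.48 FPKM after control AMO (-0.68, adjusted p = 0.0331).

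**Figure D3:**
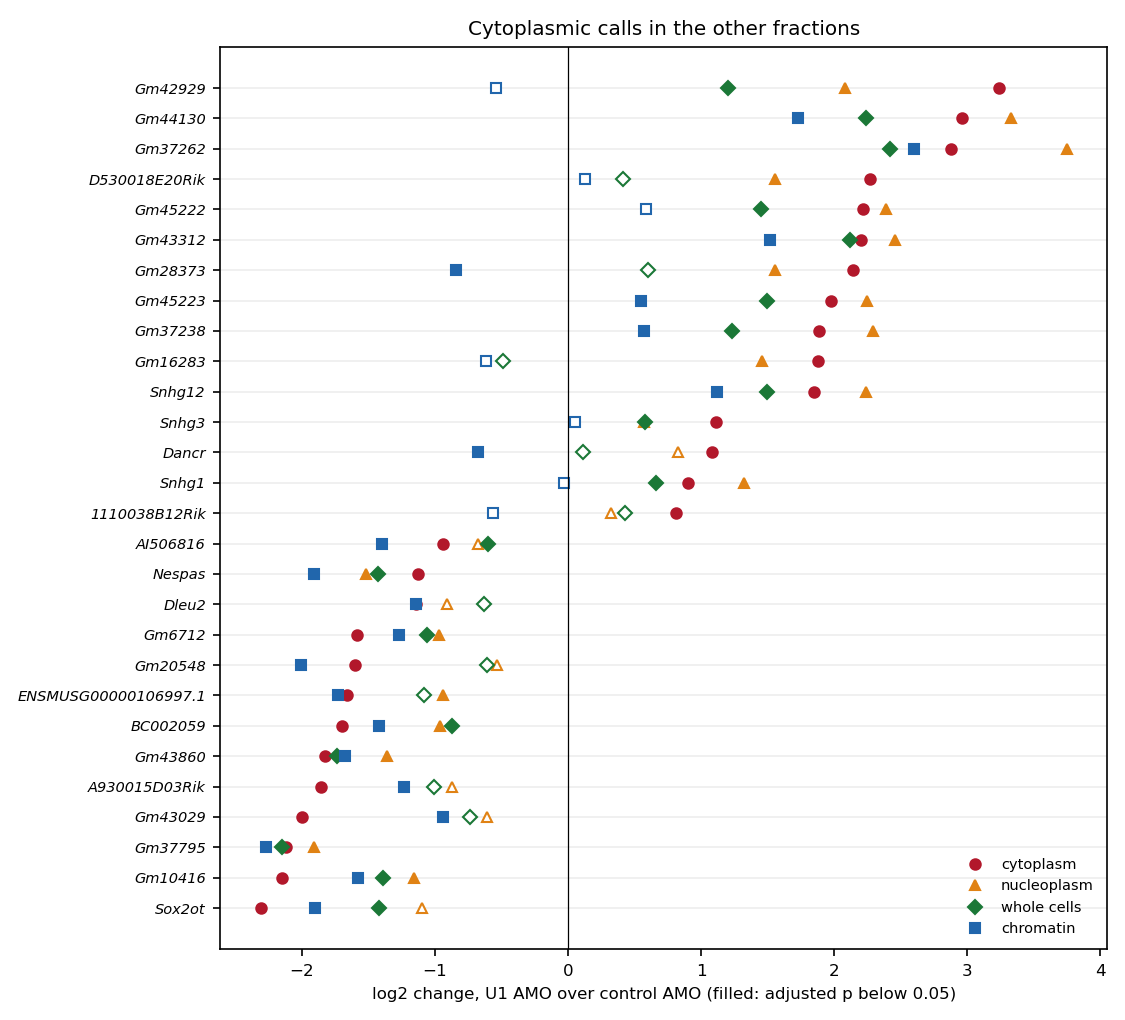
Log2 change, U1 AMO over control AMO (x axis), of the 10 largest rises, the 10 largest falls, 4 snoRNA hosts, Dancr, AI506816, Nespas and Dleu2 (rows, ordered by the cytoplasmic change), in cytoplasm, nucleoplasm, whole cells and on chromatin (symbols; filled where adjusted p is below 0.05). The largest rises and falls are those at or above the median level. Falls lie left of 0 in all 4, while among rises the chromatin squares run from -0.84 (Gm28373) to 2.60 (Gm37262).

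The difference between the cytoplasmic and the chromatin change was tested in 1 fit of the 36 AMO libraries of cytoplasm, chromatin and nucleoplasm. It was above 0 for 116 of 1277 lncRNAs (9.08%) and below 0 for 0 (limma adjusted p below 0.05). This count rested on the scaling and on single libraries: with centred libraries 5 were above and 13 below, with a median difference of -0.205 in place of 0.551, and without control AMO chromatin library 1 it was 42 (51 without control AMO chromatin library 3, 56 and 76 without U1 AMO chromatin libraries 1 and 2, 72 without U1 AMO cytoplasm library 3). Gm42929 had the largest difference of those named, 3.78 ± 0.46 on the log2 scale (SE, limma adjusted p = 6.76e-06). It was at 2.90, 4.16 and 5.80 FPKM on chromatin after U1 AMO and 5.22, 6.95 and 6.22 FPKM after control AMO, so that the chromatin groups overlapped while the cytoplasmic groups did not. Gm28373 was at 6.68, 5.13 and 5.52 FPKM in the cytoplasm and 3.90, 6.0 and 5.49 FPKM on chromatin after U1 AMO, against 1.60, 0.88 and 1.05 FPKM in the cytoplasm and 9.80, 8.39 and 9.36 FPKM on chromatin after control AMO. In this gene the cytoplasmic level was higher and the chromatin level lower after U1 AMO, with no overlap in either fraction (difference 2.98, adjusted p = 2.33e-05). Gm16096, Gm43017 and Gm5091 followed with differences of 2.72, 2.34 and 2.17 (limma adjusted p = 0.00229, 0.0132 and 0.00379). In the cytoplasm alone Gm5091 was at 6.66, 5.58 and 7.38 FPKM after U1 AMO, against 4.48, 3.22 and 2.25 FPKM after control AMO, a change of 0.98 that did not pass (adjusted p = 0.0738) but did with the replicate block (0.0446). Against the nucleoplasm, 10 of 1277 lncRNAs differed (0.783%), 1 with the higher change in cytoplasm (Gm43119) and 9 with the lower. Without U1 AMO cytoplasm library 1 or 3 the count was 6 or 5, without control AMO cytoplasm library 1 or 3 it was 4 or 2, without U1 AMO nucleoplasm library 1 or 3 it was 5 or 3, and without control AMO nucleoplasm library 2 it was 1. Gm43119 was too low to be tested in nucleoplasm alone and was at 0 in cytoplasm after control AMO, so its difference rests on values at the floor. With a pseudocount of 1, a mean of at least 1 FPKM, centred libraries or only the groups compared, 0 had the higher change in cytoplasm.

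Location before treatment was taken from the untreated 0 h libraries of the SNRNP70-AID line, as the log2 cytoplasmic level minus the log2 chromatin level, and the 1242 lncRNAs tested were ranked and split into 3 groups of 414. The 414 most on chromatin (-7.87 to -3.11) had 28 rises and 11 falls (6.76% and 2.66%). The 414 in the middle (-3.11 to -0.84) had 12 rises and 23 falls (2.90% and 5.56%), and the 414 most in cytoplasm (-0.82 to 6.42) had 9 rises and 8 falls (2.17% and 1.93%). Rises were thus most frequent in the group most on chromatin in that line, and falls in the middle group. In the cytoplasm of that line 42 of the 49 rises and 41 of the 42 falls were high enough to be tested. The place of the rest rests on values near the floor, as for Gm43312, at 0.05 FPKM in cytoplasm at 0 h. The AMO libraries can place an RNA otherwise. Malat1 was at 274 FPKM in cytoplasm and 1286 FPKM on chromatin at 0 h, while after control AMO its cytoplasmic level was the higher. Whether the AMO libraries would give the same groups was not tested. Level moved with location: the median cytoplasmic level after control AMO was 0.797, 1.58 and 2.94 FPKM in the 3 groups, and its part in these counts was not tested. The median log2 change in the cytoplasm was -0.21, -0.25 and -0.15, and on chromatin -0.87, -0.92 and -0.55. At the chromatin end, Gm44045 stood at -5.33 before treatment, and at the cytoplasmic end among the rises 6330403K07Rik, which RefSeq gives as protein-coding, stood at 3.48 (chosen after its value was seen, with 2.77, 2.48 and 3.53 FPKM in cytoplasm after U1 AMO, against 1.28, 1.43 and 1.13 FPKM after control AMO).

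**Figure D4:**
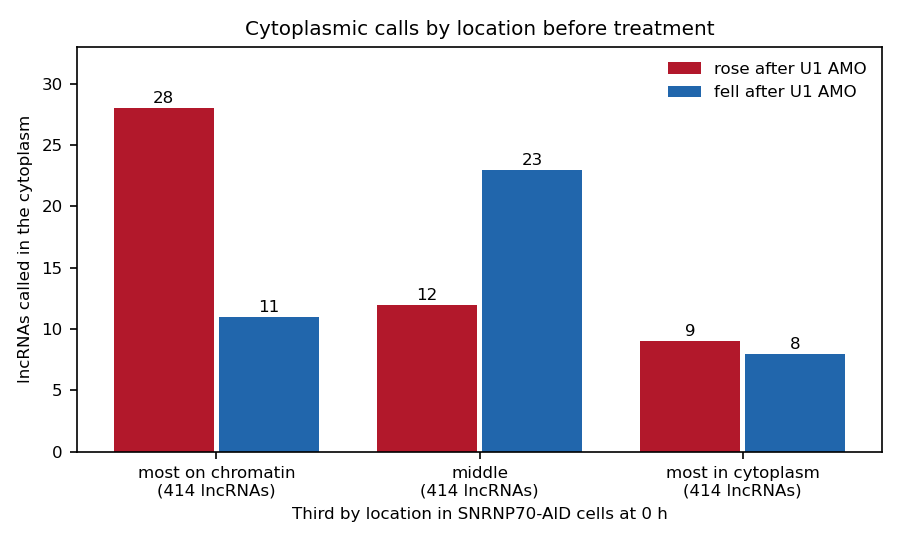
Number of lncRNAs that rose (red, left) or fell (blue, right) in the cytoplasm after U1 AMO (y axis, from 0), in 3 groups of 414 lncRNAs ordered by cytoplasmic minus chromatin level in untreated SNRNP70-AID cells (x axis). Rises number 28, 12 and 9 and falls 11, 23 and 8 from the chromatin end to the cytoplasmic end.

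U2 snRNP, which recognises the branch point of introns, was blocked at the same dose and time. U1 AMO against U2 AMO in the cytoplasm gave 34 of 1242 lncRNAs higher after U1 AMO (2.74%) and 4 lower (0.322%), 3.06% in all, or 29 and 10 with centred libraries. With the replicate number as a block the counts were 51 and 21, while a fit of only these 6 libraries called 0 (159 at unadjusted p below 0.05) and leaving out single libraries gave 9 to 30, with U1 AMO library 3, U1 AMO library 2 and U2 AMO libraries 1, 2 and 3 giving 9, 11, 17, 19 and 23. Gm44130 averaged 3.37 ± 0.793 FPKM after U1 AMO and 0.263 ± 0.176 FPKM after U2 AMO (SD, n = 3 each; log2 change 3.00, limma adjusted p = 0.0025). Gm44045 averaged 6.82 ± 1.08 and 1.31 ± 0.586 FPKM (2.29, adjusted p = 0.00256), Gm45222 3.77 ± 0.338 and 0.78 ± 0.221 FPKM (2.04, adjusted p = 0.0025), and Gm45223 and Gm37262 had log2 changes of 2.08 and 1.89. Snhg12 averaged 1561 ± 281 FPKM after U1 AMO and 584 ± 73.1 FPKM after U2 AMO (1.41, adjusted p = 0.00921); it was the 1 of 12 snoRNA hosts called here. Among the lower ones was Gm43359, with 1.32 ± 0.18 FPKM after U1 AMO and 3.42 ± 0.857 FPKM after U2 AMO (-1.24, adjusted p = 0.0242).

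For other members the mean after U2 AMO stood near that after U1 AMO. The same control AMO libraries serve both treatments, so levels are given side by side. Snhg1 averaged 374 ± 38.6 FPKM after U1 AMO, 394 ± 20.8 FPKM after U2 AMO, 256 ± 53.6 FPKM after 50 µM U1+U2 AMO and 202 ± 39.9 FPKM after control AMO. Dancr averaged 39.7 ± 11.2, 36.4 ± 11.7, 40.6 ± 10.3 and 18.3 ± 2.09 FPKM in the same order, and Dleu2 8.67 ± 0.74, 8.29 ± 1.32, 9.60 ± 1.72 and 19.4 ± 2.86 FPKM. The log2 difference between U1 and U2 AMO was -0.08, 0.13 and 0.07 for these 3 genes (adjusted p = 0.926, 0.923 and 0.932), which does not show that the treatments act alike. Snhg12 averaged 1383 ± 362 FPKM after U1+U2 AMO and 430 ± 49.1 FPKM after control AMO, and Gm42929 15.6 ± 3.79 FPKM after U1+U2 AMO, 8.98 ± 2.81 FPKM after U2 AMO and 1.67 ± 0.92 FPKM after control AMO. The dose of U1+U2 AMO differed from that of the single AMOs.

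A second way of disabling U1, loss of SNRNP70 over 4 h of IAA, was read in another line with its own libraries, normalised in a separate table and with a pseudocount of 0.1. There 29 of 1089 lncRNAs rose in the cytoplasm (2.66%) and 11 fell (1.01%), 3.67% in all. Without trended variance 3 were called, and leaving out single libraries gave 10 to 31 calls (10, 14, 19 and 11 without the 4 h libraries 1 and 2 and the 0 h libraries 1 and 2). Of the 49 rises after U1 AMO 42 were tested, of which 7 rose and 0 fell: Gm42929, Gm28373, Snhg12, Snhg3, Dancr, Gm38190 and Snhg1. Their share was 14.3% of the 49 and 24.1% of the 29, and the median log2 change of the 42 was 0.43, against -0.04 for all tested. Snhg12 was at 240, 229 and 288 FPKM at 4 h and 71.1, 61.5 and 73.1 FPKM at 0 h (log2 change 1.87 ± 0.15 SE, limma adjusted p = 0.00119). Snhg3 was at 89.4, 79.3 and 76.0 FPKM at 4 h and 35.9, 24.5 and 27.7 FPKM at 0 h (1.49 ± 0.17, adjusted p = 0.00509). These hosts were higher in all 3 libraries at 4 h, as they were after U1 AMO. Of the 12 snoRNA hosts 5 rose at 4 h, Snhg1, Snhg5 and Gas5 being the others; Snhg5 and Gas5 had not passed the test after U1 AMO, and whether the experiments differ was not tested.

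Gm28373 was at 19.2, 18.8 and 15.3 FPKM at 4 h and 0.43, 0.63 and 0.89 FPKM at 0 h (log2 change 4.61 ± 0.26 SE, limma adjusted p = 0.000255). It had the largest rise of the degron experiment. Of the 42 falls after U1 AMO 41 were tested there, 0 fell and 2 rose, Gm10416 and AI506816. Over all lncRNAs tested there 1.01% fell and 2.66% rose, so these counts are near the general share. The 41 had a median log2 change of 0.06. Gm10416 was at 6.47, 6.52 and 4.53 FPKM at 4 h and 1.98, 2.20 and 2.12 FPKM at 0 h (1.42 ± 0.21, adjusted p = 0.0154), and AI506816 at 64.1, 61.8 and 65.1 FPKM at 4 h and 31.5, 30.9 and 30.3 FPKM at 0 h (1.04 ± 0.12, adjusted p = 0.00509). Each of these 2 genes was thus lower after U1 AMO and higher after loss of SNRNP70.

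**Figure D5:**
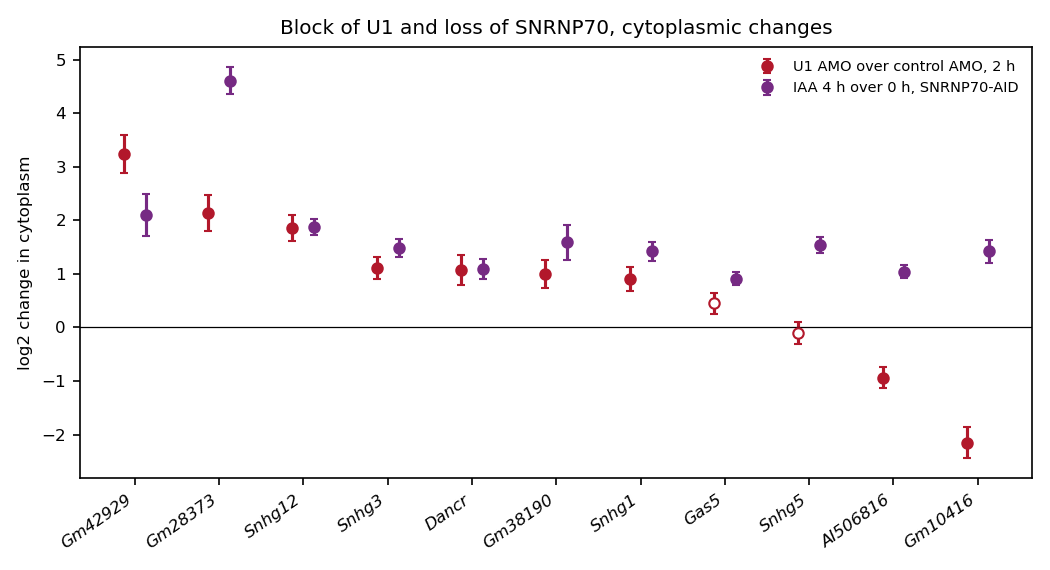
Log2 change in cytoplasm with its SE (y axis) after U1 AMO over control AMO (red, left) and after 4 h over 0 h of IAA in SNRNP70-AID cells (purple, right) for the cytoplasmic calls after U1 AMO that were also called after loss of SNRNP70, with Snhg5 and Gas5 (filled where adjusted p is below 0.05). From Gm42929 to Snhg1, the leftmost 7, both points lie above 0, and AI506816 and Gm10416 lie below 0 after U1 AMO and above it after loss of SNRNP70.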

How the data were processed

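RNA was sequenced after ribosomal RNA depletion with a directional kit, per the labels' protocols; whether values count 1 strand is not given in the sources used here. The authors deposited FPKM values. Their tables name a spike-in scaling for the 3 fractions and none for whole cells, per the file headers. LacZ and mCherry transcripts were added to each fraction, per the labels' protocols. CASAVA, TopHat, Cufflinks and build mm10 are named in the submitters' processing notes. Read depth is unknown, and the error given is that among libraries. A column named for control AMO replicate 3 but for no fraction was not used. Chromatin, cytoplasm and nucleoplasm of that replicate had columns of their own, which leaves whole cells for the unused one. Leaving out 3 entries that shared an identifier left 1279 lncRNAs, and 1261 identifiers had a symbol in the name table.

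Values were taken as log2(FPKM + 0.2), or 0.1 for the SNRNP70-AID table, which understates the change of low genes, and a lncRNA was tested where at least 3 libraries reached that amount. Each fraction had 1 linear model holding all treatments of its table (limma 3.58.1 under R 4.3.3, trended variance), with Benjamini-Hochberg adjustment over all lncRNAs tested (threshold 0.05). The tests between fractions used 1 model of the 36 AMO libraries of cytoplasm, chromatin and nucleoplasm. That model took same-numbered libraries of different fractions as independent. The fit was checked on simulated data whose libraries varied independently, so that check does not cover libraries that deviate together. Same-numbered U1 and control AMO libraries deviated together, with correlations of 0.289, 0.30 and 0.107 in cytoplasm. In the SNRNP70-AID cytoplasm these correlations were -0.009, -0.028 and 0.154. The main fits held no term for the replicate number, so they left the pairing of the AMO libraries out. A fit with the replicate block was run as an alternative and called 117 lncRNAs in cytoplasm after U1 AMO, in place of 91.

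Named lncRNAs were the 10 largest calls in each direction at or above the median level (1.61 FPKM), the 5 of highest level in each direction, called list members, a standing set, and the 5 largest at or above the median in the tests against chromatin and against U2 AMO. Snhg5, Snhg15, Snhg20, Mir22hg, Mir17hg and Gm38190 fall outside that rule and were named after their values were seen. Members and lists were chosen with earlier results of these data known. Alternatives were the pseudocount (1 or 0.05), the filter (none, or a mean of 1 FPKM), centring, only the groups compared, the block, no trend, and leaving out each library. RefSeq symbols matched 36.6% of the lncRNAs tested, so a check of gene length or structure is void and was not run. Positions and sequences are from RefSeq GRCm38.p6.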

Additional observations from a re-analysis of the deposited data

Results flagged for a closer look

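The change after U1 AMO differed between cytoplasm and chromatin, by the test of the difference itself, for 116 lncRNAs, all with the higher change in cytoplasm (cytoplasmic minus chromatin log2 change: Gm42929 3.78, Gm28373 2.98, Gm16096 2.72, Gm43017 2.34 and Gm5091 2.17). With centred libraries the same test gave 5 with the higher and 13 with the lower change in cytoplasm, so the direction of the count rests on the scaling. The change differed between cytoplasm and nucleoplasm for 10 lncRNAs. Gm37522, chosen after its values were seen, had a difference of -1.97, with 4.60, 4.62 and 3.73 FPKM in cytoplasm after U1 AMO and 1.59, 1.36 and 1.86 FPKM after control AMO. Gm17024, chosen in the same way, had a difference of -1.86.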

How the results depend on the processing

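Of 35 named lncRNAs called in the cytoplasm, 19 kept their call under each alternative run; 16 lost it without at least 1 library, and 11 under another alternative, with the same sign throughout and an adjusted p of at most 0.148. Signs turned only for 3 uncalled genes with 1 library left out: Neat1 (log2 changes of -0.1345 to 0.3006), Gm42418 (-0.03497 to 0.2115) and Pvt1 (-0.07272 to 0.3579). The replicate block changed the calls of Gas5 and Gm5091 (log2 changes 0.45 and 0.98, now called), raised the count against U2 AMO to 72 and changed no other named call. A fit of only the groups compared gave 50 calls in cytoplasm, 94 in whole cells, 54 against chromatin, 1 against nucleoplasm and 0 against U2 AMO. Centred libraries gave 371 calls on chromatin, 247 in nucleoplasm, 18 for cytoplasm against chromatin (5 higher and 13 lower) and 5 against nucleoplasm. For the cytoplasmic minus chromatin change a pseudocount of 1 gave 252 calls and 0.05 gave 58; against nucleoplasm a pseudocount of 1 gave 4. A mean of at least 1 FPKM left 97 calls in nucleoplasm, and no trend left 3 for loss of SNRNP70. With single libraries left out, calls numbered 44 to 75 in cytoplasm, 70 to 152 in whole cells, 42 to 119 against chromatin, 1 to 13 against nucleoplasm, 9 to 30 against U2 AMO and 10 to 31 for loss of SNRNP70. For loss of SNRNP70, where same-numbered libraries did not deviate together, the block gave 30 calls. The cause was not tested. Classes by gene structure were not run. Depth is unknown, so no counting error can be given; 20 of 49 rises were below 1 FPKM after control AMO.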
